A study of Oryza sativa with 200 samples.

Results

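The gene module described here holds 100 rice genes whose leaf transcript level rose with that of the florigen gene Hd3a (Os06g0157700) across 100 inbred lines in both 2022 and 2023. The members were selected on measured values. For each gene with a mean of at least 1 CPM (the count per 1000000 counts of a library) over 200 libraries, the Pearson correlation of log2(CPM + 0.5) with Hd3a was computed over the lines of each year, and the lower of the 2 yearly r is called the score. The 100 highest scores were taken from 18500 candidate genes. Over the floor of 1 CPM lay 18505 of the 37849 gene identifiers, and the rule left out 5 of these 18505, Hd3a itself among them. Because r with Hd3a chose the members, those correlations are given as a description and are not tested.

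The plants were lines of JAM2, a multi-parent cross of several varieties followed by inbreeding, with the 4 parents Akidawara, Iwaidawara, Tachiharuka and Toyomeki. Leaves came from generation F5 on 1 July 2022 and from generation F6 on 29 June 2023, sampled from the top fully expanded leaf 6 weeks after transplanting and between 9:00 and 11:00. All lines received chemical fertilizer with 56 kg of nitrogen per ha, and each stood as 33 plants in a single plot without a replicate. Each line gave 1 leaf library of poly(A) RNA per year, so the spread between libraries joins line, plot, leaf and library preparation. No parental varieties are among the libraries analysed here.

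Hd3a is made in the leaf and moves through the phloem to the shoot apex, where it enters a complex that switches on MADS-box genes and starts panicle formation. The MADS-box genes OsMADS14, OsMADS15 and OsMADS18 are known downstream genes. In a leaf the level of Hd3a is set by day length, the circadian clock and the alleles a line carries at heading date loci. A gene that follows Hd3a over lines may lie upstream, downstream or beside it, and a correlation does not separate these.

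Library totals ran from 3254834 to 37774023 counts in 2022 (median 7768777) and from 3729294 to 16881699 in 2023 (median 11272411). The 30 deepest libraries of 2022 all stood in columns 52 to 100 of that year's table. Hd3a averaged 9.18 ± 15.4 CPM in 2022 (SD, n = 100 lines) and 2.53 ± 5.398 CPM in 2023. Its lowest, median and highest levels were 0, 1.08 and 82.7 CPM in 2022 and 0, 0.239 and 36.7 CPM in 2023. It had 0 counts in 24 lines in 2022 and in 33 lines in 2023, of which 23 had 0 in both years. The same lines were high in both years, with r = 0.891 between the years as a description over 100 lines. A name in the labels speaks of unique exon reads, so reads that Hd3a shares with related genes may be missing from its counts.

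The level of Hd3a also tracked column order within each year's table, with opposite sign. In 2022 its median was 0.116 CPM in columns 1 to 10 and 40.2 CPM in columns 91 to 100. In 2023 the median was 11.6 CPM in columns 1 to 10, and in columns 91 to 100 it was 0, with 9 of 10 lines at 0 counts. The correlation of Hd3a with column position was 0.755 in 2022 and -0.816 in 2023. Lines that stood late in 2022 stood early in 2023, with r = -0.788 between the positions of a line in the 2 years. The labels do not say what set the column order, and in 2022 the clock gene OsLHY (Os08g0157600), which peaks around dawn, correlated with position at 0.962, against 0.0407 in 2023. Hd3a correlated with OsLHY at 0.704 in 2022 and 0.113 in 2023. Level and column position therefore cannot be told apart by the simple correlations that define the module.

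The members followed the same order. All 100 were higher in later columns in 2022 and in earlier columns in 2023, a pattern shown by 20.3% of the candidates. Hd3a itself followed position in this way, so choosing genes by their r with Hd3a nearly fixed this outcome. The median over the members of their levels, each scaled to its own mean and SD over the lines of a year, went from -0.65 SD units in columns 1 to 10 to 0.91 in columns 91 to 100 in 2022. In 2023 it went from 1.01 to -0.40 over the same columns. Position correlated with the member more strongly than Hd3a did for 56 members in 2022 and 31 in 2023, against 72.1% and 49.1% of all candidates. With OsLHY, r was over 0.3 in 93 members in 2022 and in 25 in 2023, against 18.0% and 9.91% of candidates. The r of members with the log2 library total had a median of 0.341 in 2022 and -0.104 in 2023. The part of depth, sampling order and clock phase in the module was not tested.

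**Figure D1:**
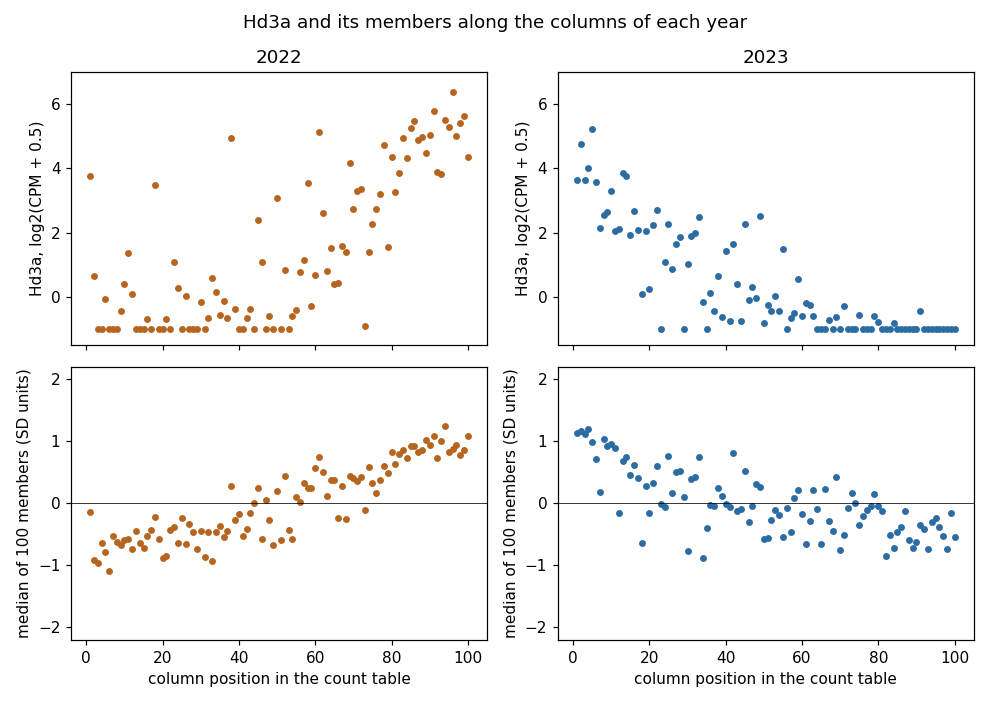
Each point is 1 library, placed by its column position within its year's table; the upper panels show Hd3a on the log2(CPM + 0.5) scale and the lower panels the median of the 100 members in SD units. Hd3a and the members rise together with position in 2022 and fall together with it in 2023.

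Scores in the module ran from 0.313 to 0.721 with a median of 0.364, beside a median of -0.111 over all 18500 candidates. Of the members, 16 scored over 0.5, 21 scored from 0.4 to 0.5, and 63 were at or under 0.4. The relation was looser in 2023 for most: r in 2022 exceeded r in 2023 in 78 members (52.6% of candidates), with medians of 0.473 and 0.375. The end of the list has no natural gap. The last members inside were Os01g0290100, Os04g0665600 and Os06g0605600, with scores of 0.3138, 0.3133 and 0.3132. The first genes outside were Os06g0574450, Os08g0481100 and Os12g0257450, at 0.3131, 0.3130 and 0.3130.

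MADS-box genes that had been left out give the scale of a strong relation. OsMADS1 (Os03g0215400), a floral organ identity gene, had a score of 0.914, OsMADS14 (Os03g0752800) 0.836 and OsMADS18 (Os07g0605200) 0.485. No member reached the first 2 of these, and 1 member, Os10g0463400, exceeded 0.7. OsMADS15 (Os07g0108900) and OsMADS34 (Os03g0753100) lay below the floor of 1 CPM.

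**Figure D2:**
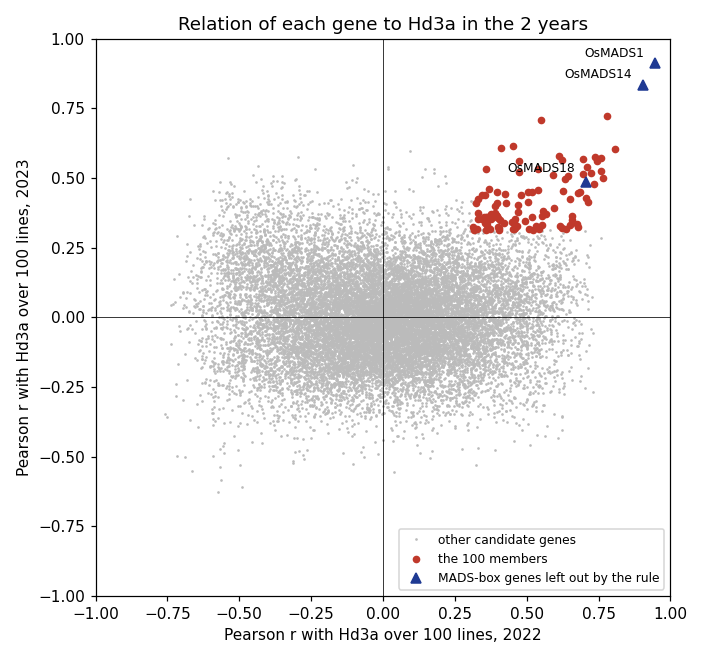
Each point is 1 gene, placed by its Pearson r with Hd3a over 100 lines in 2022 (horizontal) and in 2023 (vertical); red points are the 100 members, blue triangles 3 MADS-box genes left out, and grey points the other candidates. The members fill the upper right corner by selection, down to 0.313 on either axis, and OsMADS1 and OsMADS14 lie beyond them.

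The reference table used here holds no locus numbers of this kind, so names of the 100 members could not be looked up in it. Members are given by locus, in which the digits after Os name the chromosome, and no role is given for them. For 1 of them, Os10g0463400, a flowering regulator had been planned on a gene list, but the table holds no such symbol, so the pairing could not be checked and neither name nor role is given. The highest score belonged to Os10g0463400, a low-abundance transcript. Its lowest, median and highest levels were 0, 1.35 and 7.49 CPM in 2022 and 0, 0.673 and 6.01 CPM in 2023. Here and below, lines without Hd3a are the 23 with 0 counts of it in both years. Lines with Hd3a are the 66 with counts of it in both years, and the remaining lines are in neither group. Lines without Hd3a had a median of 0.384 CPM of Os10g0463400 in 2022, and lines with Hd3a had 2.32 CPM. In 2023 the medians were 0.221 and 1.03 CPM. The groups overlapped in both years, since some lines with Hd3a had 0 CPM of Os10g0463400. Its r with Hd3a was 0.779 in 2022 and 0.721 in 2023.

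Os03g0122500, with the second highest score, is also a rare transcript. Its levels were 0.104, 1.47 and 6.23 CPM (lowest, median, highest) in 2022 and 0.286, 1.11 and 4.13 CPM in 2023. Medians in lines without and with Hd3a were 0.986 and 2.44 CPM in 2022 and 0.733 and 1.51 CPM in 2023, with overlapping ranges. Its r with Hd3a was 0.808 and 0.603. The locus number just after it is that of OsMADS50 (Os03g0122600), a SOC1-like MADS-box gene that promotes flowering in rice, which was picked out here after its values were seen.

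OsMADS50 went the other way. Its median was 59.0 CPM in 2022 and 65.2 CPM in 2023, and its r with Hd3a was -0.57 in 2022 and -0.63 in 2023. Between Os03g0122500 and OsMADS50 r was -0.52 and -0.38. With column position held constant, that pair had r of -0.30 in 2022 and -0.06 in 2023. The library kit keeps strand, but whether the counting used it is not given in the sources used here, so reads where neighbouring genes overlap are uncertain.

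Os04g0373400 had levels of 0.271, 2.15 and 8.86 CPM (lowest, median, highest) in 2022 and 0.0791, 0.959 and 5.00 CPM in 2023. Its medians in lines without and with Hd3a were 1.03 and 2.67 CPM in 2022 and 0.724 and 1.21 CPM in 2023. The 2 groups of lines overlapped in each year. Of all 18500 candidates it kept the highest relation to Hd3a once column position was taken into account, as given further on.

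Os12g0516200 was far more abundant, at 23.2, 130.38 and 303 CPM in 2022 and 6.55, 113 and 425 CPM in 2023. Lines without Hd3a had a median of 60.5 CPM in both years, and lines with Hd3a had 166 CPM in 2022 and 141 CPM in 2023. The groups of lines overlapped in both years.

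**Figure D3:**
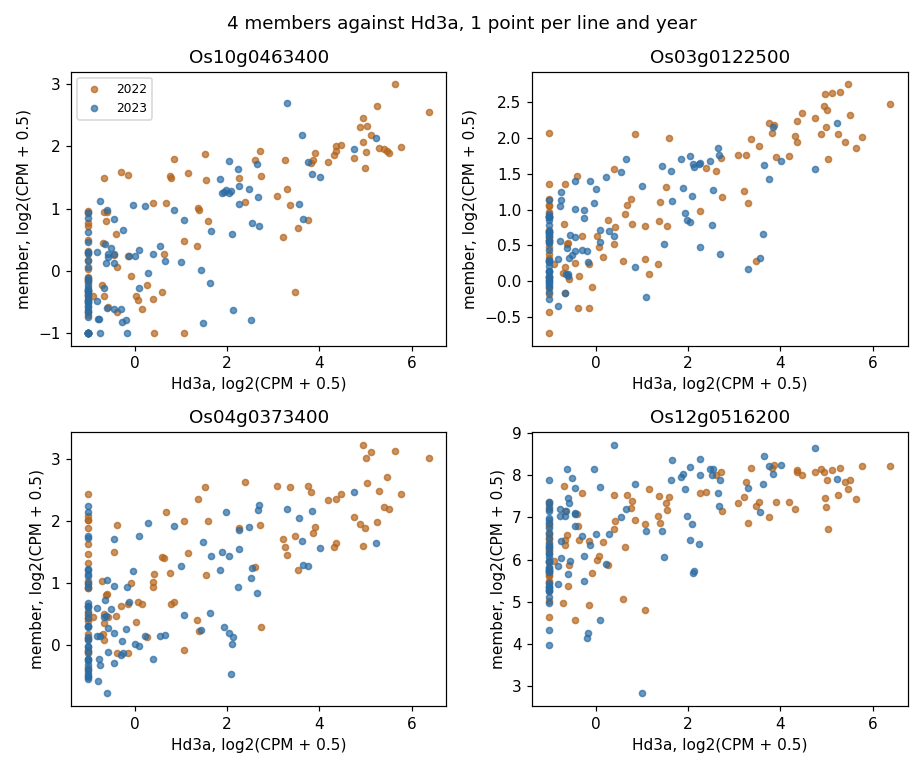
Each panel plots 1 member against Hd3a, both on the log2(CPM + 0.5) scale, with 1 point per line in 2022 (brown) and 2023 (blue). The column of points at the left edge holds the lines with 0 counts of Hd3a, 24 in 2022 and 33 in 2023, over which each member still varied widely.

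Several other members among the 20 highest scores were moderately to highly expressed. Os03g0325500 had medians of 28.1 CPM in lines without Hd3a and 38.9 CPM in lines with it in 2022, and 28.9 and 36.3 CPM in 2023. Os03g0757200, one of the most abundant of them, had 179 and 239 CPM in 2022 and 202.2 and 219 CPM in 2023. Os01g0695100 had 61.4 and 75.3 CPM in 2022 and 43.3 and 67.9 CPM in 2023. In each of these members the ranges of the 2 groups of lines overlapped.

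Of the rare members in that set, Os03g0607200 had 0.829 and 1.90 CPM in 2022 and 0.375 and 0.735 CPM in 2023. Os11g0118400 had 0.897 and 1.35 CPM in 2022 and 0.487 and 1.24 CPM in 2023, and it was one of the members more tightly tied to Hd3a in 2023 (r = 0.709) than in 2022 (r = 0.548). The contrast was small in Os09g0372900, with 9.40 and 13.03 CPM in 2022 and 10.8 and 11.5 CPM in 2023. It was small in 2023 for Os06g0544100 as well, at 7.47 and 7.74 CPM, after 5.50 and 8.22 CPM in 2022.

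The remaining members of the first 20 were Os10g0205200, Os02g0128000, Os03g0757100, Os09g0449800, Os02g0693500, Os01g0719700, Os12g0573900, Os01g0306900 and Os01g0695150, with scores from 0.474 to 0.567. Over the module, mean levels ran from 1.01 to 855 CPM with a median of 23.5 CPM, against 12.3 CPM over all candidates. The most abundant members were Os12g0515800, at a mean of 855 CPM over both years, Os09g0553900 at 666 CPM and Os01g0588900 at 575 CPM. The rarest were Os04g0572100 at 1.01 CPM and Os12g0212100 and Os01g0532700 at 1.17 CPM each. CPM is not corrected for gene length, so these are levels of reads and not of molecules.

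Members were spread over all 12 chromosomes. Chromosome 1 held 18 of them, against 14.2% of the candidates, chromosome 3 held 12 (13.5%), chromosome 2 held 11 (12.0%) and chromosome 12 held 10 (5.35%). Chromosome 6, where Hd3a lies, held 8 (8.17%). There were 8 runs of members whose locus numbers differed by at most 1000, with 17 members in them.

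In the tightest runs neighbours followed each other closely. Os01g0695100 and Os01g0695150 correlated at 0.872 in 2022 and 0.963 in 2023. On chromosome 12, Os12g0515800, Os12g0516000 and Os12g0516200 formed the sole run of 3, with r of 0.792 and 0.894 between the first pair and 0.768 and 0.898 between the second pair. The relation was looser between Os01g0719700 and Os01g0719800, at 0.747 and 0.562. On chromosome 3, Os03g0757100 and Os03g0757200 correlated at 0.683 and 0.551, and their locus numbers lie not far above that of OsMADS14. Os03g0757200 correlated with OsMADS14 at 0.725 and 0.562. Other runs hardly moved together, such as Os11g0242400 with Os11g0243300 (0.318 and 0.0602) and Os03g0578200 with Os03g0578500 (0.497 and 0.112). Members of the tight runs are not separate observations.

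A few members held the ranking of the lines from year to year, and Os06g0572000 split nearly all lines into an off and an on class. The r of a member with itself between the years had a median of 0.330 in the module and 0.130 over all candidates, and it reached 0.8 in 4 members, near the 3.18% of candidates that did so. Os06g0572000 (r = 0.993 between years) was under 0.2 CPM in 45 lines in 2022 and 43 in 2023, and at 2 CPM or more in 55 lines in each year. In those 55 lines its level ran from 8.20 to 30.0 CPM in 2022 and from 15.0 to 41.1 CPM in 2023, so no line lay near the limit in 2022 and 2 lines lay between the limits in 2023. In the 43 lines with this member off in both years, Hd3a had a median of 0.274 CPM in 2022 and 0.158 CPM in 2023. In the 55 lines with it on in both years, the medians of Hd3a were 5.57 and 0.970 CPM.

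Os06g0254200 (r = 0.950 between years) was under 0.2 CPM in 69 lines in 2022 and 56 in 2023, and at 2 CPM or more in 28 and 26. Between the limits lay 3 lines in 2022 and 18 in 2023, so its classes were less distinct in 2023. Over the 55 lines with this member off in both years, the median of Hd3a was 0.409 CPM in 2022. Over the 26 lines with it on in both years, that median was 14.0 CPM. In 2023 the medians were 0.0994 and 2.96 CPM. Of those 26 lines, 2 had 0 counts of Hd3a in 2022 and 4 did in 2023. The classes therefore do not match the presence of Hd3a line by line.

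Os06g0605600 (r = 0.915) was graded rather than absent, from 1.49 to 18.9 CPM in 2022. Os12g0212100 (r = 0.806) was under 0.2 CPM in 47 lines in 2022 and 44 in 2023, with 30 and 17 lines between the limits, and it followed Os06g0572000 closely, at r = 0.819 in 2022 and 0.965 in 2023, although their locus numbers place them on chromosomes 12 and 6. Os06g0605600 and Os06g0572000 correlated at 0.874 and 0.910. These 3 loci correlated with each other at 0.720 to 0.965, and Os06g0254200 correlated with Os06g0572000 at just 0.256 and 0.186. For Os12g0212100 and Os06g0605600 the relation to Hd3a given column position was weak, with lower yearly values of -0.02 and -0.01. The value of Os06g0605600 was 0.140 in 2022, and its lower value came from 2023.

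How the members related to Hd3a beyond the column trend was described by the partial r, the correlation left after position and its square were removed from both genes within each year. The lower of the 2 partial r had a median of 0.0976 over the members and ran from -0.22 to 0.463. It was at or over 0.3 in 8 members and in 9 of all candidates, at or over 0.2 in 20 members, and below 0 in 22 members. The figure of 20 compares with 93 candidates, or 0.503%. These values were computed on the libraries that chose the members and so are not an independent check.

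The 8 members at or over 0.3 were Os04g0373400 (0.463), Os12g0516200 (0.370), Os03g0122500 (0.354), Os10g0463400 (0.327), Os07g0545900 (0.323), Os10g0205200 (0.322), Os01g0306900 (0.316) and Os11g0243300 (0.306). Os03g0760200 (0.287) and Os01g0695100 (0.256) came next. For comparison, the left-out OsMADS1 kept 0.776 and OsMADS14 0.336, while OsMADS18 kept 0.0150. Of the 5 highest scores in the module, Os09g0372900 fell to 0.120 and Os03g0325500 to 0.155, in each case through the 2023 libraries.

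**Figure D4:**
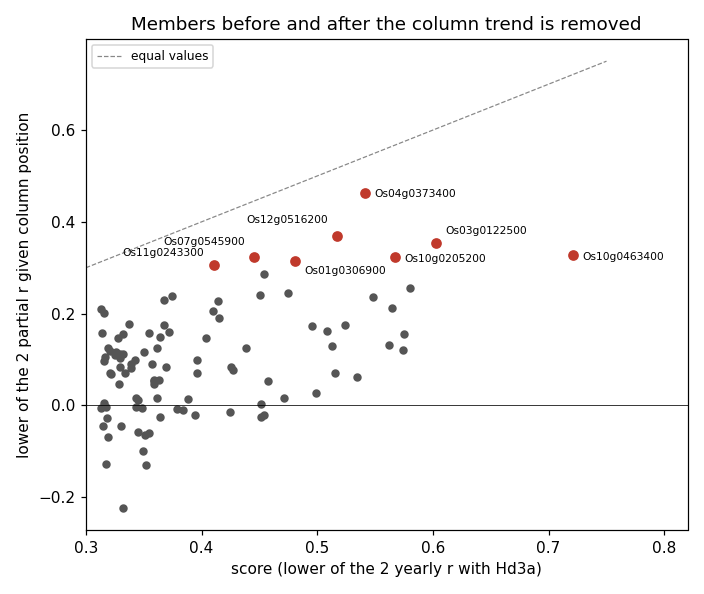
Each point is 1 member, placed by its score (horizontal) and by the lower of its 2 partial r given column position (vertical); the dashed line marks equal values and the 8 members at or over 0.3 are named. All members lie under the line, from 0.463 for Os04g0373400 down to -0.22.

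Each year's columns were also split at the middle. In columns 1 to 50 the r with Hd3a was above 0 in both years for 84 members (37.9% of candidates), and in columns 51 to 100 for 52 (23.9%). It was above 0 in all 4 sets of 50 columns for 44 members (7.62% of candidates) and over 0.2 in all 4 for 7, against 11 candidates. The same libraries chose the members, so these counts are a description and not an independent check. In 2022 the relation was carried by the later columns, where the median r was 0.427 against 0.169 in the earlier ones. In 2023 it was the reverse, with 0.389 in the earlier columns and 0.00610 in the later ones, where the median of Hd3a was 0 CPM.

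Between members, the median pairwise r was 0.339 in 2022 and 0.234 in 2023 over 4950 pairs. Given column position it was 0.0879 and 0.0972. Given Hd3a it was 0.120 and 0.0704.

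A check that the rule did not use is to choose genes in 1 year and test them in the other, keeping in mind that the lines are the same and that the floor used both years. The 100 genes with the highest r in 2022 included 22 members, and those with the highest r in 2023 included 33 members. Just 14 genes were in both sets. The slope of each gene on log2(CPM + 0.5) of Hd3a was tested in the other year with edgeR's quasi-likelihood test, fitted over all genes and adjusted by Benjamini-Hochberg at 0.05.

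Of the genes chosen in 2022, 95 could be tested in 2023, and 18 had a positive slope, none a negative one (0 genes), and 77 did not pass. At an unadjusted p under 0.05, 2 slopes were negative, and DESeq2 called 0. Over all genes 4.76% had a positive slope in 2023 and 3.48% a negative one. In the other direction the outcome was mixed. Of 90 testable genes chosen in 2023, 26 had a positive slope in 2022 and 41 a negative one, where 22.7% and 25.3% of all genes did. The median r in the other year was 0.111 for the genes chosen in 2022 and -0.06 for those chosen in 2023. A gene chosen in 2023 was thus more often lower than higher with Hd3a in 2022.

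With column position and its square as terms, 4 genes chosen in 2022 had a positive slope in 2023 (0.594% of all genes tested), and 1, Os02g0572400, which is no member, had a negative one (2.47% of all genes tested). Of those chosen in 2023, 4 had a positive slope in 2022 (0.0362% of all genes, which is 6 genes) and 0 a negative one, with 1 negative at an unadjusted p under 0.05 and 0 by DESeq2. All 8 of these positive results belong to members, which follows nearly by construction, since the rule takes genes with a high r in both years. The choice of each gene here used the r of 1 year and the slope came from the other, and Os12g0516200 passed in both directions. With these terms the slope of Os12g0516200 on Hd3a was 0.41 ± 0.11 (SE, n = 100 lines) in 2023 (edgeR adjusted p = 0.0318). In 2022 the slope was 0.21 ± 0.04 (edgeR adjusted p = 0.0317). Slopes are log2 changes per unit of Hd3a on the log2 scale with the constant added to CPM. A unit on that scale takes more than a doubling of Hd3a, above all at low levels.

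In 2023 the others were Os07g0545900, with a slope of 0.11 ± 0.02 (edgeR adjusted p = 0.0109), Os01g0306900 with 0.10 ± 0.03 (adjusted p = 0.0480) and Os10g0205200 with 0.10 ± 0.03 (adjusted p = 0.0453). In 2022 they were Os06g0544100, with 0.15 ± 0.02, Os04g0608100 with 0.24 ± 0.04 and Os03g0325500 with 0.09 ± 0.01. Os10g0463400 and Os03g0122500, with the highest scores, are not among them, and neither is Os04g0373400, with the highest partial r. These are rare transcripts that may have been dropped by the count filter of the slope fits. Their absence is therefore not a failed test.

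The difference in level between the years was not used by the rule and could be tested over all 200 libraries. Of the 100 members 99 passed the count filter, and Os06g0254200 did not. At an adjusted p under 0.05 in edgeR's quasi-likelihood test, 50 members were higher in 2023 and 22 lower, and 27 did not pass. Over all 18674 genes tested 34.3% were higher and 36.9% lower, so more members than the background share were higher. That split depends on scaling: with library totals in place of TMM factors it was 39 and 30, and the median change of all genes moved from -0.01 to -0.12 on the log2 scale. The shares of all genes called with totals were not computed, so the 39 and 30 cannot be set against a background. The median change of the members was 0.10.

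Most of these changes were small. A change of at least 2-fold was found in 1 member upward (0.702% of all genes) and 2 downward (0.841%). The rise was that of Os11g0531700, from 6.64 ± 2.14 to 12.8 ± 3.33 CPM (SD, n = 100), a log2 rise of 1.05 ± 0.06 (SE), with 96 of 100 lines higher. Os04g0679900 rose by 0.93 ± 0.05 in 99 lines, Os10g0162300 by 0.80 ± 0.08 in 84, Os02g0134400 by 0.74 ± 0.08 in 88 and Os01g0915300 by 0.71 ± 0.05 in 96.

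The largest fall was in Os04g0578550, from 10.02 ± 3.86 to 2.21 ± 1.33 CPM, -2.07 ± 0.10 on the log2 scale, with all 100 lines lower. Os03g0607200 changed by -1.13 ± 0.15 (83 lines lower), Os04g0572100 by -0.94 ± 0.18 (74 lines), Os06g0264700 by -0.90 ± 0.07 (99 lines) and Os03g0760200 by -0.89 ± 0.10 (98 lines). Os10g0463400, with the highest score, fell as Hd3a did, from 1.72 ± 1.53 to 0.968 ± 1.04 CPM, by -0.80 ± 0.20 on the log2 scale (edgeR adjusted p = 0.000161), and was lower in 78 lines. Hd3a itself had a lower mean in 2023, yet 50 members were higher that year, so the direction between years did not follow the direction across lines.

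**Figure D5:**
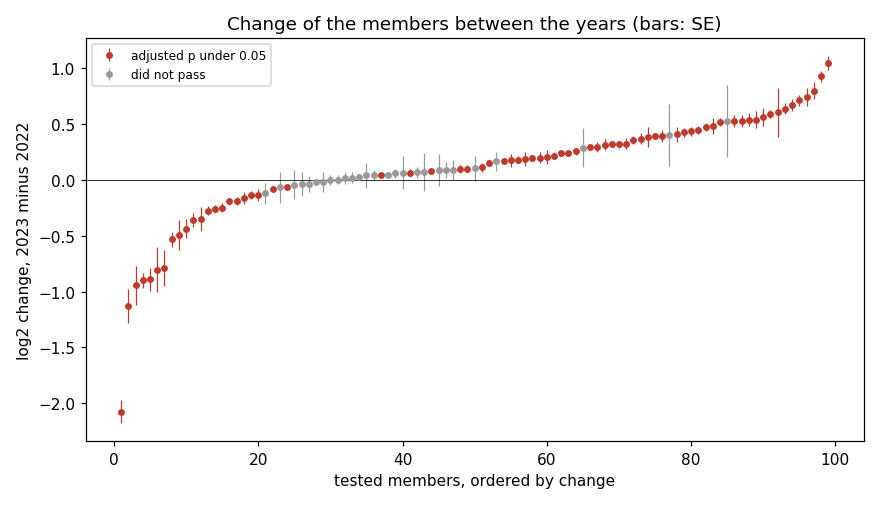
The 99 tested members are ordered by their log2 change from 2022 to 2023 (vertical axis, 2023 minus 2022), with bars showing the SE of the fit; red marks an edgeR adjusted p under 0.05. The values run from -2.07 for Os04g0578550 to 1.05 for Os11g0531700, with 50 members significantly higher and 22 lower.

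Among flowering genes whose names could be kept, none was a member. Of 67 list genes whose names could be kept, 7 were Hd3a and the loci the rule leaves out, and 0 were in the module. Many of the others lay below the floor and could not be members. Of 28 kept MADS-box genes 9 were candidates, and of 13 kept upstream flowering genes 11 were. Members are 100 of 18500 candidates, so a count of 0 among so few is near that share and is no result about flowering genes. Of the 31 planned genes whose symbol the table lacks, 1, planned at Os10g0463400, is a member by its locus, so the count of 0 covers the kept names only. Over all genes, as given above, 22.7% had a positive and 25.3% a negative slope in 2022, and 4.76% and 3.48% in 2023. The count filter of the slope fits kept 9 MADS-box genes, which are not the same 9 as the candidates. OsMADS1 and OsMADS14, with the high scores given above, did not pass it and were not tested. Among the 9 tested, 4 had a positive and 2 a negative slope on Hd3a in 2022, and 2 and 1 did in 2023. The 2 of those tested that were positive in both years were OsMADS18, which the rule leaves out, and OsMADS57 (Os02g0731200). The negative one in both was OsMADS50. Of 11 upstream flowering genes, among them phytochromes and OsGI, 3 had a positive and 6 a negative slope in 2022, and 0 passed in 2023 (edgeR; 1 at an unadjusted p under 0.05 and 0 by DESeq2). Of 7 clock genes 4 were positive and 1 negative in 2022, and in 2023 0 passed by edgeR, adjusted or not, or by DESeq2. Of 4 senescence genes 1 was positive and 2 were negative in 2022, and 1 was positive in 2023. The gene positive in 2023 was 1 of the 2 that were negative in 2022. With position and its square as terms, 0 of 36 tested list genes passed by edgeR in either year, against 3 in 2022 and 7 in 2023 at an unadjusted p under 0.05. DESeq2 called 1 in each year, OsMADS50 in 2022 and SPL13 (Os07g0505200) in 2023, each with a negative slope.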

How the data were processed

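Raw counts per gene were deposited by the authors as 1 table per year, without further normalization, and a name in the labels speaks of unique exon reads. Per the submitters' processing notes, the genome build named is IRGSP-1.0. Which aligner and counter made the table is not given in the sources used here. All columns matched a labelled sample (0 did not).

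CPM was the count divided by the library total. Year and slope tests used edgeR 4.0.16 in R 4.3.3 (quasi-likelihood F test, filterByExpr, TMM factors, Benjamini-Hochberg adjustment), with DESeq2 1.42.0 as an alternative. The edgeR fits of year, and of slope without position terms, were also run on simulated counts. Those counts held no column trend and no pairing of lines, so they do not test the fits for data with these features. The SE was taken from the log2 change and the root of its F statistic. With 1 leaf per line, p-values measure the spread between lines. Both libraries of a line carry its number, so the years are paired: deviations of same-line libraries from the yearly means correlated at a median of 0.512 (0.128 to 0.705), and 97 of 100 lines matched their own best.

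Members and lists were chosen with earlier results of these data known. Names were kept where the RefSeq table (assembly ASM3414082v1) lists the symbol on the locus' chromosome, in order, for 67 of 101 pairs. Genes named are the 20 highest scores, the 10 highest partial scores, the 5 largest rises and 5 largest falls between years, the 3 members at each end of mean CPM and the 3 genes on each side of the list's end. Genes outside this rule (members with r of at least 0.8 between years, neighbours, genes passing across years and list genes) were chosen after their values were seen. The results of 1 gene left out by the rule are omitted.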

Additional observations from a re-analysis of the deposited data

How the results depend on the processing

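Membership of the module was kept by 73 to 91 of the 100 members under TMM scaling, other pseudocounts, other floors, Spearman's rho, thinning to the smallest library and, as an alternative added after seeing the data, partial r given the log2 library total. It was kept by 50 without the lines of the 30 deepest 2022 libraries, by 46 given OsLHY (also added later), by 40 in lines with Hd3a counts in both years, by 20 given column position, by 18 in columns 1 to 50 and by 10 in columns 51 to 100. The median score of the members, 0.364, became 0.0976 given position, 0.148 in columns 1 to 50 and 0.00409 in columns 51 to 100. Fewer lines enter the last settings, and the cause was not tested.

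With lines entered as a replicate block, to use the pairing, 54 members were higher and 23 lower in 2023. The shares of all genes called in that fit were not computed. The count at least 2-fold higher was 0 with library totals and 3 without the 30 deepest, and the count 2-fold lower was 5 with totals, 3 with the block, 1 with position terms and 1 after thinning. Genes chosen in 2022 with a positive slope in 2023 went from 18 to 4 with position terms, and those chosen in 2023 from 26 to 4, where DESeq2 gave 4 and 6. The 10 members named for their change between years kept direction and adjusted call in all 75 alternative values that could be had. The other 5 could not be tested, since the count filter dropped Os03g0607200 and Os04g0572100 after thinning and without the 30 deepest, and Os10g0162300 after thinning. The 2-fold size was lost by Os11g0531700 with totals (0.93) and by Os03g0607200 with position terms (-0.93).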
